A study of Mus musculus with 2 samples.

Results

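The 9 transcription factors that stand for the main branches of T cell differentiation, Tbx21, Eomes, Gata3, Rora, Foxp3, Ikzf2, Bcl6, Tox and Prdm1, were followed through the leukocytes of diseased mouse kidney. They were chosen by symbol as 9 of the 32285 genes of the deposited matrices, and each symbol had 1 row. A naive CD4 T cell takes up one of several programmes, each held by a lineage factor: T-bet (the product of Tbx21) for type 1 cells, Gata3 for type 2 cells, the ROR receptors for type 17 cells, Foxp3 for regulatory cells and Bcl6 for follicular helper cells. Eomes and T-bet are also needed for cytotoxic CD8 and natural killer (NK) cells, Prdm1 encodes Blimp-1, a repressor that opposes Bcl6, and Tox accompanies chronic antigen stimulation. The programmes are not sealed off from each other, since regulatory T cells of tissues can carry Gata3 or T-bet beside Foxp3, which makes detection of several factors in 1 cell of interest.

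The cells were leukocytes sorted by CD45 from B6 mouse kidneys at week 2 of AAN CKD, that is, chronic kidney disease of the aristolochic acid type, and all groups below come from these kidneys. The single-cell sample held 2 hashed samples, which carry different antibody-borne barcodes but share 1 capture. Their matrices are named m1 and m2, each with w2, but no label explains m1 and m2 or states what the barcodes separate. A Visium section was not analysed here. In the labels of this sample the title adds week 1 and speaks of 1 mouse, the cell type label names mesenchymal stem cells and the protocol names human kidneys, while the gene identifiers are mouse and leukocyte genes led the cells. Kidneys of untreated mice were not analysed here. Of 7015 barcodes, 3315 and 3700 in hashed samples 1 and 2, with 20743037 and 25314154 unique molecular identifiers (UMIs, 1 per captured RNA molecule), 6552 cells were kept, 3086 and 3466, with medians of 5665.5 and 6566.5 UMIs. Where a pair of values follows, the first belongs to hashed sample 1 and the second to hashed sample 2. The hashed samples shared 0 barcodes.

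T cells were cells with at least 1 UMI of the CD3 genes Cd3d, Cd3e and Cd3g, which gave 1581 cells. In 191 of these more than 1% of UMIs came from 8 myeloid genes, and they were set aside, leaving 1390 T cells (929 and 461). They fell into 419 CD4 T cells (296 and 123, with Cd4 UMIs alone), 460 CD8 T cells (290 and 170, with Cd8a or Cd8b1 UMIs alone), 488 T cells without a coreceptor UMI (325 and 163) and 23 cells with both (18 and 5). The median depth was 4546 UMIs in CD4 T cells, 3514.5 in CD8 T cells and 3280.5 in T cells without a coreceptor UMI, so that the last class is one in which no coreceptor was detected, not one shown to lack it. NK cells, with at least 2 of 9 NK markers and no CD3 UMI, numbered 41 (26 and 15, median 2912 UMIs), and macrophages, with at least 10 UMIs of C1qa, C1qb and C1qc, numbered 3519 (1400 and 2119, median 7103 UMIs).

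The classes carried the markers of their names. All 8 listed T cell markers had UMIs in each T cell class, summing to between 4419 and 4908 UMIs per 1e6 UMIs of the class (counts per 1e6, CPM), against 660.5 and 730.1 CPM in NK cells, where Cd3d, Cd3e and Cd3g were at 0 by the rule. The 9 NK markers summed to 7574 and 7675 CPM in NK cells, against 178 and 99.6 CPM in CD8 T cells and 12.2 and 29.6 CPM in CD4 T cells. T cells without a coreceptor UMI had 24.9 and 24.8 CPM of Cd40lg, the CD40 ligand gene of helper cells, against 18.8 and 29.6 CPM in CD4 T cells and 0 and 2.85 CPM in CD8 T cells. The 5 macrophage markers summed to 279 and 342 CPM in CD4 T cells and 431 and 514 CPM in CD8 T cells. They summed to 429 and 475 CPM in T cells without a coreceptor UMI and 478 and 572 CPM in NK cells. Macrophages had 15151 and 15692 CPM of them. The part of such macrophage RNA in the differences below was not tested. The 4 monocyte markers summed to 128 and 96.5 CPM in CD4 T cells and 580 and 489.5 CPM in CD8 T cells. Macrophages had 82.7 and 31.5 CPM of these. Vcan, 1 of the 4, had no UMI in CD4 or CD8 T cells. Whether the monocyte sum is stray RNA or RNA of the T cells themselves was not tested.

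The promoters of Eomes, the member highest in NK cells, Gata3, higher in CD4 than in CD8 T cells, and Foxp3, which defines regulatory cells, are shown to give the regions from which these RNAs start. Each is the 250 bases before a start listed by RefSeq on GRCm38.p6, 5′ to 3′ on the gene's strand. RefSeq's table held 7 of the 9 members (not Ikzf2 and Tox). Capitals mark a GATA motif in the Foxp3 sequence and an ETS motif in the Gata3 sequence. The search covered both strands, and no motif found overlapped another.
Eomes, chr9:118477939-118478188, plus strand: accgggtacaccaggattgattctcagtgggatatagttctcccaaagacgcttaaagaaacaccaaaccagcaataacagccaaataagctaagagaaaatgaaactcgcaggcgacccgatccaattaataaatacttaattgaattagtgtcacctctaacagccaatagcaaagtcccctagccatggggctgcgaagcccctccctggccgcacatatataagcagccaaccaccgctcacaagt
Gata3, chr2:9878601-9878850, minus strand: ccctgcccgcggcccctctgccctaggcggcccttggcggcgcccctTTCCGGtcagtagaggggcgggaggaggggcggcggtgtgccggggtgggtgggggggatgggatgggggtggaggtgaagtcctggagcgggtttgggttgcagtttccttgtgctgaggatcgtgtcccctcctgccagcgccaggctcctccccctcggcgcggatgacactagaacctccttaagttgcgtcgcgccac
Foxp3, upstream start, chrX:7579426-7579675, plus strand: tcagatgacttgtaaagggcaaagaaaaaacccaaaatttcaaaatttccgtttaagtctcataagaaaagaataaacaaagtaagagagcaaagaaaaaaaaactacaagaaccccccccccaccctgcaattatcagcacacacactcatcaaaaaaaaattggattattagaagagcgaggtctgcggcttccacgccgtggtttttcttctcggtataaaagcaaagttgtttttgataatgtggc
Foxp3, downstream start, chrX:7580233-7580482, plus strand: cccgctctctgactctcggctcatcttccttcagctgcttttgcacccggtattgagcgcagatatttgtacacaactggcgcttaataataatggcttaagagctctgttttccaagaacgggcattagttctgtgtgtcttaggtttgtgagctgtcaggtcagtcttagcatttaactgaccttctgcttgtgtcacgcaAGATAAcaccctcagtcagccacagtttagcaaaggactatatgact
The GATA motif AGATAA stood once before the downstream Foxp3 start and in 9.99% of 32851 promoter windows of this length, and the ETS motif CCGGAA stood once, on the other strand, before the Gata3 start, once before 1 of the Bcl6 starts and in 12.0% of windows. The Runx motif TGTGGT, in 14.0% of all windows, and the T-box motif AGGTGTGA, in 1.12%, were in none of the 9 windows of the 7 members. Guanine and cytosine made up 37.6% of the upstream Foxp3 window and 46.4% of the Eomes window, against 70.0% of the Gata3 window and a median of 52.4% over all windows. A match describes letters in a window and is not a bound site.

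Eomes was highest in NK cells and Tbx21 was found in all 4 lymphocyte classes. Eomes, which encodes the T-box factor eomesodermin (ENSMUSG00000032446, chromosome 9, 118478212 to 118486132, plus strand, GRCm38), had 393 and 217 CPM in NK cells, 25.1 and 29.9 CPM in CD8 T cells, 4.98 and 15.5 CPM in T cells without a coreceptor UMI and 1.52 and 9.34 CPM in CD4 T cells. The ranges of the hashed samples were apart between NK and CD8 T cells and between CD8 T cells and the class below, and overlapped between CD4 T cells and T cells without a coreceptor UMI. The NK values rest on 39 UMIs in 19 of 41 cells, with 95% Poisson intervals of 261 to 569 and 108 to 388 CPM that, like all intervals here, cover counting error only. Of the 53 T cells with an Eomes UMI, 37 were CD8 T cells, 69.8% against a share of 33.1% of all T cells. In macrophages Eomes was at 0.191 and 0.0601 CPM.

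Tbx21 (ENSMUSG00000001444, chromosome 11, 97098071 to 97115331, minus strand) had 70.3 and 138 CPM in NK cells, from 12 UMIs. It had 50.9 and 42.7 CPM in CD8 T cells, 46.6 and 38.9 CPM in CD4 T cells and 32.7 and 27.9 CPM in T cells without a coreceptor UMI. CD4 and CD8 T cells overlapped in this order, and the values of the other neighbouring classes did not. With each cell thinned to 2000 UMIs, a Tbx21 UMI was found in 9.20% of CD4 T cells, 8.78% of CD8 T cells and 20.6% of NK cells, against 0.0298% of macrophages. Without thinning the shares were 22.4%, 16.7% and 24.4%, against 0.142% of macrophages, which had the highest median depth of these classes. The Tbx21 share without thinning was higher in CD4 than in CD8 T cells while the CPM was not, so that no order of the pair is read from it.

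Gata3 and Rora were higher in CD4 than in CD8 T cells, in both hashed samples. Gata3, a zinc finger factor needed for T cell development and for type 2 cells (ENSMUSG00000015619, chromosome 2, 9857078 to 9890034, minus strand), had 83.2 and 107 CPM in CD4 T cells, 90.4 and 97.5 CPM in T cells without a coreceptor UMI, 70.3 and 98.7 CPM in NK cells and 44.8 and 47.0 CPM in CD8 T cells. The first 3 classes overlapped and CD8 T cells lay below them. The NK values rest on 5 and 5 UMIs, and the pooled ratio of CD8 T cells over NK cells, 0.555-fold, had a counting interval that includes 1 (0.289 to 1.20). At 2000 UMIs a Gata3 UMI was found in 19.4% of CD4 T cells and 9.47% of CD8 T cells, against 0.119% of macrophages.

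Rora, which encodes the nuclear receptor ROR alpha found in type 17 cells, innate lymphoid cells and tissue regulatory T cells (ENSMUSG00000032238, chromosome 9, 68653786 to 69388246, plus strand), had 154 and 176 CPM in CD4 T cells and 168 and 110 CPM in T cells without a coreceptor UMI. It had 84.3 and 69.7 CPM in CD8 T cells and 98.4 and 39.5 CPM in NK cells, where the NK values rest on 9 UMIs. CD4 T cells overlapped with T cells without a coreceptor UMI, and CD8 T cells with NK cells, while the CD4 and no-coreceptor values lay above the CD8 and NK values. Macrophages held 12.2 and 11.6 CPM of Rora, monocyte marker cells 4.90 and 18.7 CPM and dendritic marker cells 7.53 and 8.76 CPM, so that this member was not confined to lymphocytes.

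Foxp3, the factor that defines regulatory T cells (ENSMUSG00000039521, chromosome X, 7573644 to 7595245, plus strand), was found in 92 T cells, 70 and 22. Its level was 37.0 and 46.7 CPM in CD4 T cells, 36.3 and 34.1 CPM in T cells without a coreceptor UMI and 9.11 and 0 CPM in CD8 T cells. NK cells had 0 and 0 CPM, where 3 UMIs would have given 42.2 and 59.2 CPM, and macrophages had 0.382 and 0.120 CPM. CD4 T cells lay above T cells without a coreceptor UMI in both hashed samples, with Poisson intervals that overlapped. Of the 92 Foxp3-positive T cells, 44 were CD4 T cells, 40 had no coreceptor UMI, 4 were CD8 T cells and 4 had both coreceptors. The 40 without a coreceptor UMI were 43.5% of the Foxp3-positive cells (95% Clopper-Pearson interval 33.2 to 54.2), against 35.1% of all T cells.

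Ikzf2, which encodes Helios, an Ikaros family factor carried by many regulatory T cells and by some innate-like T cells (ENSMUSG00000025997, chromosome 1, 69531214 to 69687245, minus strand), separated the 3 T cell classes. It had 174 and 175 CPM in T cells without a coreceptor UMI, 81.6 and 134 CPM in CD4 T cells, 58.5 and 37.0 CPM in CD8 T cells and 14.1 and 59.2 CPM in NK cells, the last from 4 UMIs. The first 3 classes were apart from each other, and CD8 T cells overlapped with NK cells. Dendritic marker cells had 16.6 and 7.89 CPM and macrophages 4.39 and 6.31 CPM, in which 3.98% of cells had an Ikzf2 UMI.

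Bcl6, Tox and Prdm1 gave 3 different patterns. Bcl6, the repressor of follicular helper cells that dendritic cells and monocytes also use (ENSMUSG00000022508, chromosome 16, 23965052 to 23988852, minus strand), was lowest in the T cells, with 3.55 and 4.67 CPM in CD4 T cells, 3.04 and 4.27 CPM in CD8 T cells and 4.98 and 6.19 CPM in T cells without a coreceptor UMI. Dendritic marker cells had 46.7 and 47.3 CPM, monocyte marker cells 31.8 and 6.23 CPM, NK cells 14.1 and 19.7 CPM and macrophages 12.0 and 11.7 CPM. The NK values of Bcl6 rest on 1 and 1 UMIs, so that the order of T and NK cells is not read from them. No T cell held more than 1 Bcl6 UMI, and 29 of 1390 T cells held 1, a share of 2.09% that lies under the 8.07% of macrophages at their higher depth. At 2000 UMIs per cell the shares were 0.857% of T cells and 2.71% of macrophages.

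Tox, an HMG-box factor of T cell development and of persistently stimulated T cells (ENSMUSG00000041272, chromosome 4, 6686353 to 6991557, minus strand), had 101.4 and 87.1 CPM in CD4 T cells, 61.2 and 63.5 CPM in T cells without a coreceptor UMI, 45.5 and 72.6 CPM in CD8 T cells and 0 and 59.2 CPM in NK cells. CD4 T cells lay above the other classes, which overlapped, and the NK values rest on 0 and 3 UMIs. Tox was at 0.286 and 0.120 CPM in macrophages and at 0 in dendritic and monocyte marker cells.

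Prdm1 (ENSMUSG00000038151, chromosome 10, 44437177 to 44528501, minus strand) had 37.0 and 34.2 CPM in CD4 T cells, 35.7 and 14.2 CPM in CD8 T cells, 32.7 and 26.3 CPM in T cells without a coreceptor UMI and 42.2 and 39.5 CPM in NK cells, the last from 5 UMIs. Monocyte marker cells, with 22.0 and 29.1 CPM, lay within the range of the T cells, and macrophages had 10.0 and 11.3 CPM. The NK values lay above those of the T cells, but the pooled ratio of CD4 T cells over NK cells was 0.885-fold with a counting interval that includes 1 (0.366 to 2.79). CD4 T cells lay above T cells without a coreceptor UMI, and the wide range of CD8 T cells overlapped with both.

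**Figure D1:**
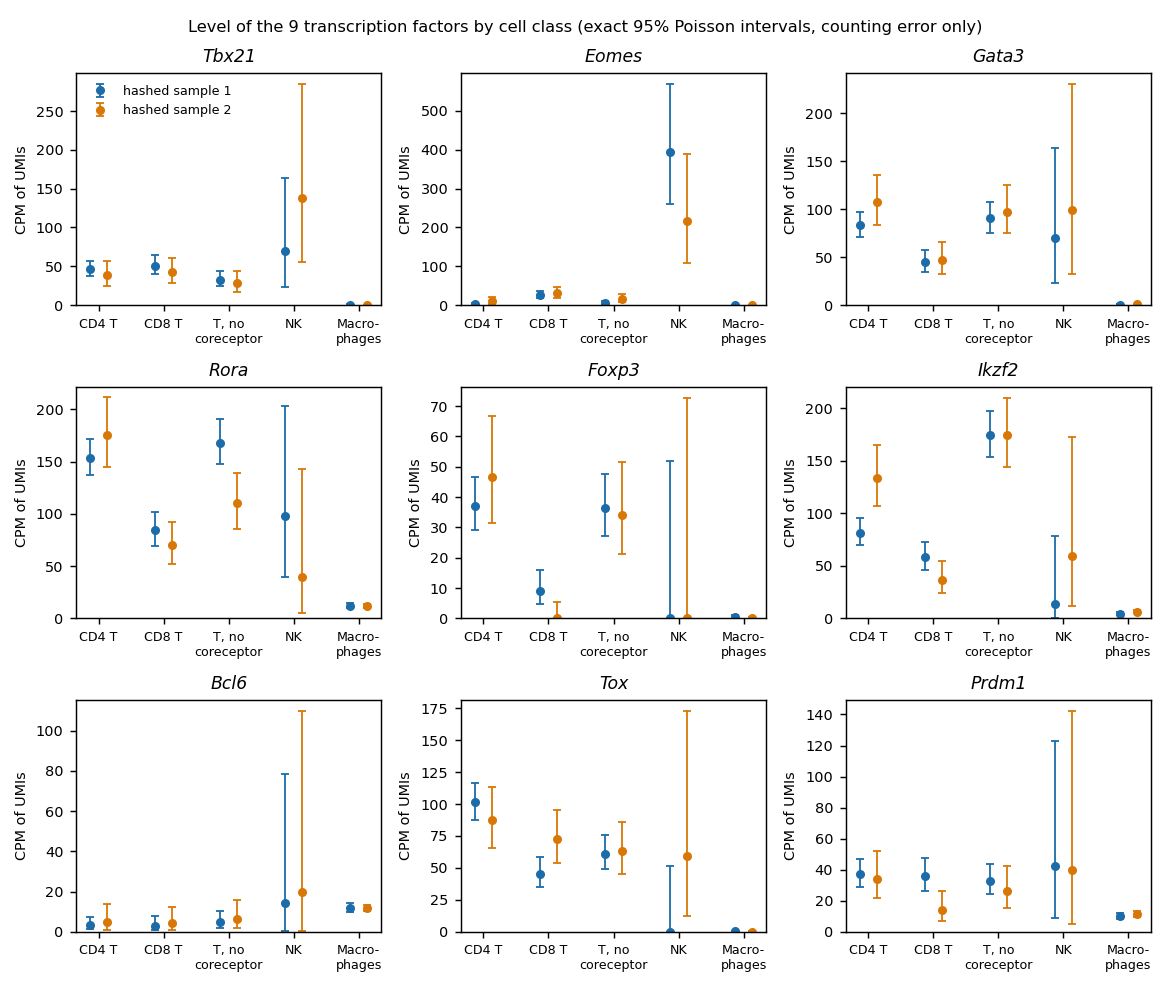
Level of each of the 9 factors, in CPM of the UMIs summed over all cells of a class (vertical axes, linear, each from 0), in CD4 T cells, CD8 T cells, T cells without a coreceptor UMI, NK cells and macrophages (horizontal axis). Points are hashed samples 1 (blue) and 2 (orange) and bars are exact 95% Poisson intervals that cover counting error only; Eomes stands out in NK cells at 393 and 217 CPM, Ikzf2 in T cells without a coreceptor UMI at 174 and 175 CPM, and the NK intervals are wide.

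Classes were compared by the log2 ratio of CPM after adding 10 CPM, so that ratios of low genes come out too small. Genes below 50 CPM in both classes of a hashed sample were left out as not measured, and a measured gene was counted if hashed samples 1 and 2 each gave 1.5-fold or more in one direction. Listed genes and all others could thus be measured through the higher class alone. Genes that define the classes stayed in the counts over all measured genes. With 1 single-cell sample and no labelled replicate animals there was no test, and no p-value is given. Hashed sample 2 differed from hashed sample 1 by at least 1.5-fold in 6.41% of measured genes in CD4 T cells, 5.94% in CD8 T cells and 5.60% in T cells without a coreceptor UMI, but in 57.2% in NK cells, which sets how far single NK values can be read.

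In CD4 T cells over CD8 T cells, 2 of the 4 measured members were counted, Gata3 and Rora, both higher, where 4.81% of the 2785 measured genes were counted in either direction, 2.87% as higher and 1.94% as lower. The log2 ratios were 0.77 and 1.04 for Gata3 and 0.80 and 1.22 for Rora. Pooled over the hashed samples the unmodified ratio was 1.96-fold for Gata3 (95% counting interval 1.53 to 2.52) and 2.01-fold for Rora (1.67 to 2.43). Ikzf2 and Tox were measured and not counted, since each passed 1.5-fold in 1 hashed sample, with log2 ratios of 0.42 and 1.61 for Ikzf2 and of 1.00 and 0.23 for Tox. The 5 members not measured, since neither class reached 50 CPM in at least 1 hashed sample, were Tbx21, with a pooled ratio of 0.932-fold (0.706 to 1.23), Eomes at 0.129-fold (0.0559 to 0.263), Foxp3 at 6.63-fold (3.64 to 13.2), Bcl6 at 1.10-fold (0.379 to 3.42) and Prdm1 at 1.29-fold (0.918 to 1.82). Over all measured genes 80 were counted higher and 54 lower, a split that became 63 and 68 with TMM scaling over all genes and 53 and 75 with TMM scaling over genes of at least 50 CPM, so the balance of directions depended on scaling while Gata3 and Rora stayed counted as higher.

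Listed genes of several T cell programmes were compared between the same classes. Foxp3 and Tbx21, the factors of the regulatory and type 1 programmes, were not measured here. Of 16 listed regulatory genes 6 were measured and 5 were counted, all higher in CD4 T cells, with a median log2 ratio of 1.12 and 1.65 against 0.10 and 0.11 over all measured genes. Tnfrsf4, the OX40 receptor, had 411 and 531 CPM in CD4 T cells and 79.7 and 49.8 CPM in CD8 T cells, and Izumo1r, which encodes folate receptor 4, had 70.5 and 82.5 CPM in CD4 T cells and 12.9 and 9.96 CPM in CD8 T cells. Izumo1r was thus measured through CD4 T cells alone. Of 12 type 1 genes 10 were measured and 4 were counted, all lower in CD4 T cells, among them the chemokine gene Ccl5, with 1666 and 1366 CPM in CD4 T cells and 5453 and 5766 CPM in CD8 T cells, and the cytotoxic granule gene Nkg7, with 335 and 347 CPM in CD4 T cells and 937 and 1128.5 CPM in CD8 T cells. Runx3, the factor of the CD8 programme, had 94.8 and 134 CPM in CD4 T cells and 219 and 236 CPM in CD8 T cells. Of the 12 type 2 genes, the programme of Gata3, 1 was measured, with log2 ratios of -1.19 and -0.22, and it was not counted. Of 12 type 17 genes 2 were measured and 1 was counted, as higher.

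Against NK cells the T-box member Eomes gave the largest ratio of the members in both T cell classes. In CD4 T cells over NK cells 3 of 6 measured members were counted, Eomes lower and Rora and Ikzf2 higher, where 25.5% of 3045 measured genes were counted (13.8% higher, 11.7% lower), and in CD8 T cells over NK cells 1 of 5, Eomes lower, where 18.8% of 2913 genes were counted (7.76% higher, 11.1% lower). The log2 ratio of Eomes was -5.13 and -3.55 in CD4 T cells over NK cells and -3.52 and -2.51 in CD8 T cells over NK cells, with a pooled ratio of 0.0108-fold (0.00458 to 0.0226) for CD4 and 0.0835-fold (0.0543 to 0.129) for CD8 T cells. Rora was not counted with at least 2 CD3 UMIs, with at least 2 coreceptor UMIs or with TMM scaling over genes of at least 50 CPM. The other counted members rest on few NK UMIs: Rora had 7 and 2, with ratios of 1.56-fold (0.749 to 3.92) and 4.46-fold (1.21 to 37.2), and Ikzf2 had 1 and 3, with ratios of 5.81-fold (1.03 to 231) and 2.26-fold (0.748 to 11.2). Tbx21 was lower in CD4 T cells than in NK cells by a pooled 0.454-fold (0.25 to 0.904) and was not counted, since hashed sample 1 gave a log2 ratio of -0.50. Over all genes 420 were higher and 355 lower in CD4 T cells than in NK cells, and 226 higher and 323 lower in CD8 T cells than in NK cells, which TMM scaling over all genes turned into 719 and 156 and into 530 and 107.

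Among 24 other listed lymphocyte transcription factors, 15 were measured against NK cells, and 6 were lower and 1 was higher in CD4 T cells. Irf8 had 73.5 and 24.9 CPM in CD4 T cells and 450 and 355 CPM in NK cells, and Satb1, a chromatin organiser, 9.63 and 6.22 CPM in CD4 T cells and 211 and 118 CPM in NK cells. Hif1a, the hypoxia factor, had 187 and 216 CPM in CD4 T cells and 42.2 and 59.2 CPM in NK cells.

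T cells without a coreceptor UMI differed from the single-positive CD4 and CD8 T cells in 19 genes once cells with myeloid RNA were set aside, and Ikzf2 was one of them. Ikzf2 had 174 and 175 CPM in T cells without a coreceptor UMI, against 72.4 and 83.2 CPM in single-positive T cells, with log2 ratios of 1.16 and 0.99 and a pooled ratio of 2.31-fold (1.99 to 2.69). It was 1 of 19 genes counted among 2757 measured, 0.689%, with 5 higher (0.181%) and 14 lower (0.508%), a split of 3 and 16 with TMM scaling over all genes. The lower genes include Cd4, Cd8a and Cd8b1, which the rule itself sets to 0 in T cells without a coreceptor UMI. The other 4 higher genes, named here after their values were seen, were Izumo1r, Coro2a, Fcer1g and Tmem176a, with log2 ratios between 0.61 and 1.15. Of the other 3 measured members Gata3 gave 0.37 and 0.33, Rora 0.39 and -0.12 and Tox -0.32 and -0.29, none of them counted. Under 50 CPM, Tbx21 was at a pooled 0.676-fold (0.503 to 0.898) and Foxp3 at 1.43-fold (1.05 to 1.94). When the 191 cells with myeloid RNA were kept as T cells, 196 genes were higher and 45 lower of 2869 measured, Ikzf2 was no longer counted (mean log2 ratio 0.48) and Tox was counted as lower instead (-0.85). The classes differed in depth, with medians of 3280.5 UMIs in T cells without a coreceptor UMI and 3863 in single-positive T cells, and in Mki67, a gene of dividing cells, with 194 and 113 CPM against 316 and 204 CPM, and the part of either in the result was not tested.

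**Figure D2:**
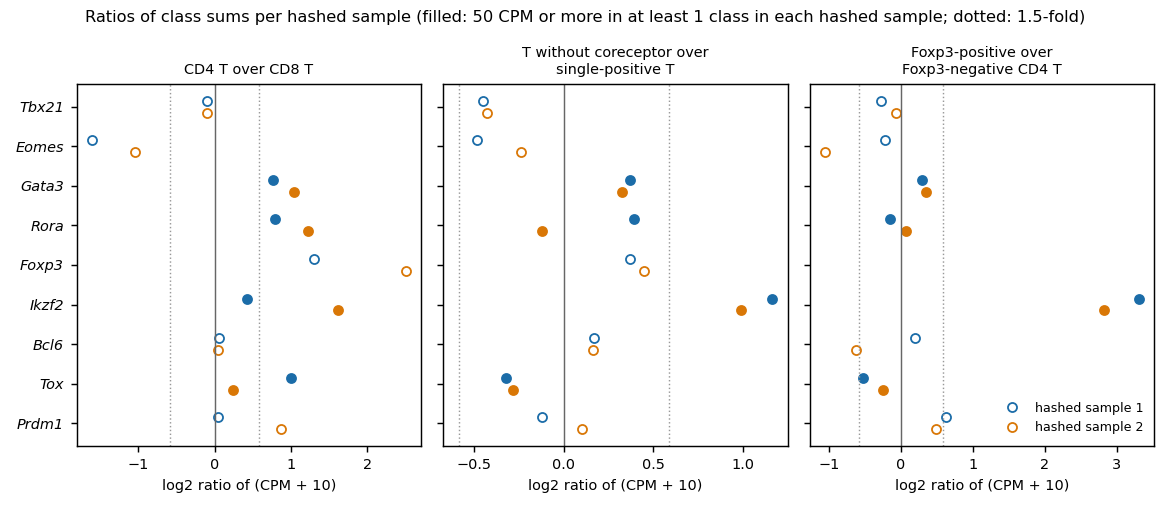
Log2 ratio of CPM plus 10 for each member (rows) in 3 comparisons: CD4 over CD8 T cells, T cells without a coreceptor UMI over single-positive T cells, and Foxp3-positive over Foxp3-negative CD4 T cells (Foxp3 itself is left out of the last). Points are hashed samples 1 (blue) and 2 (orange), filled where the member was measured (50 CPM in at least 1 class in each hashed sample) and open where it was not, and dotted lines mark 1.5-fold; Ikzf2 lies at 1.16 and 0.99 in the middle panel and at 3.31 and 2.82 in the right panel.

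Foxp3-positive and Foxp3-negative CD4 T cells were compared to see which members went with Foxp3. A cell was Foxp3-positive with at least 1 UMI, which gave 31 and 13 cells against 265 and 110, so that Foxp3-negative cells include regulatory cells whose Foxp3 RNA was not captured. Ikzf2 had 482 and 564 CPM in Foxp3-positive CD4 T cells, against 39.8 and 71.3 CPM in Foxp3-negative CD4 T cells, log2 ratios of 3.31 and 2.82. It was the 1 member counted of 4 measured besides Foxp3, where 7.34% of 2833 measured genes were counted (4.24% higher, 3.11% lower). Gata3 (0.29 and 0.35), Rora (-0.15 and 0.07) and Tox (-0.53 and -0.25) were measured and not counted. Prdm1 had 58.9 and 49.0 CPM in Foxp3-positive cells and 34.7 and 32.1 CPM in Foxp3-negative cells, a pooled 1.64-fold (0.877 to 2.87) whose counting interval includes 1. Tbx21 was at 0.817-fold (0.381 to 1.56), and Eomes and Bcl6 had 0 and 1 UMIs in the 44 Foxp3-positive cells.

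Of the listed genes of the regulatory programme, those counted went the same way as Ikzf2. Of 9 measured regulatory genes 6 were counted, all higher in Foxp3-positive CD4 T cells, with medians of 1.43 and 1.84 against 0.01 and 0.01 over all measured genes. Il2ra, for example, reached 50 CPM only in Foxp3-positive cells, so the count and medians can lean towards genes high there. Ctla4, an inhibitory receptor of activated and regulatory T cells, had 520 and 662 CPM in Foxp3-positive CD4 T cells, against 114 and 76.6 CPM in Foxp3-negative CD4 T cells, and Il2ra, the high-affinity interleukin 2 receptor chain, 107 and 184 CPM against 20.7 and 14.3 CPM. Among the other lymphocyte factors Tcf7, which encodes TCF-1 of memory-like T cells, had 0 and 12.3 CPM in Foxp3-positive cells and 113 and 143 CPM in Foxp3-negative cells. Of 9 measured type 1 genes 4 were counted as lower, among them Ifng with 53.6 and 12.3 CPM in Foxp3-positive cells and 105 and 76.6 CPM in Foxp3-negative cells, and Il18r1 was counted as higher. Over all genes 120 were higher and 88 lower, and 72 and 153 with TMM scaling over all genes.

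Split by Foxp3 in every T cell class, a division made after the values were seen, Ikzf2 kept this difference and also differed among Foxp3-negative cells. The 92 Foxp3-positive cells were 6.62% of T cells and held 48.0% of the Ikzf2 UMIs of T cells (51.2% and 40.7%). In T cells without a coreceptor UMI Ikzf2 had 758 and 756 CPM in Foxp3-positive cells and 104 and 114 CPM in Foxp3-negative cells. In CD8 T cells all 4 Foxp3-positive cells came from hashed sample 1 and had 842 CPM, while Foxp3-negative cells had 37.4 and 37.0 CPM. Among Foxp3-negative cells, those without a coreceptor UMI exceeded CD4 T cells 2.61-fold (1.94 to 3.54) and 1.61-fold (1.07 to 2.44), and CD8 T cells 2.77-fold (1.98 to 3.95) and 3.09-fold (1.94 to 5.07). These Foxp3-negative classes had medians of 3242 UMIs without a coreceptor UMI, 4526 in CD4 and 3491.5 in CD8 T cells. Each can hold regulatory cells whose Foxp3 RNA was not captured, and the part of such cells in the ratios was not tested. Of all 92 Foxp3-positive cells 82.6% had an Ikzf2 UMI, against 16.3% of the 1298 Foxp3-negative cells, at medians of 4544.5 and 3637.5 UMIs. Up to 18 Ikzf2 UMIs were found in 1 Foxp3-positive cell and up to 13 in 1 Foxp3-negative cell.

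**Figure D3:**
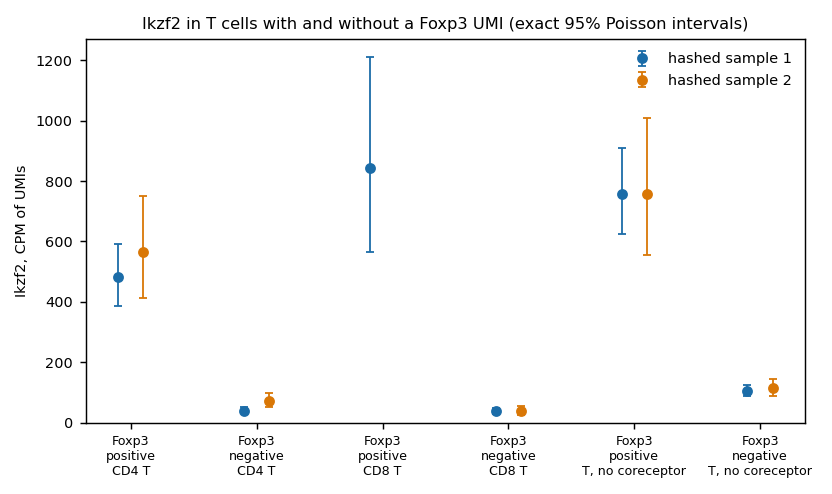
Level of Ikzf2 in CPM (vertical axis, from 0) in Foxp3-positive and Foxp3-negative cells of the CD4, CD8 and no-coreceptor T cell classes (horizontal axis). Points are hashed samples 1 (blue) and 2 (orange) with exact 95% Poisson intervals, and no Foxp3-positive CD8 T cell was found in hashed sample 2; every Foxp3-positive point is at or above 482 CPM and every Foxp3-negative point at or below 114 CPM.

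Over all T cells, a comparison added after the values were seen, Ikzf2 and Prdm1 were the members counted as higher in Foxp3-positive cells besides Foxp3, of 5 measured, where 6.16% of 2859 genes were counted (3.88% higher, 2.27% lower). Prdm1 had 61.2 and 56.2 CPM in Foxp3-positive cells and 33.3 and 21.8 CPM in Foxp3-negative cells, log2 ratios of 0.72 and 1.06, and was not measured without the myeloid filter or with at least 2 CD3 UMIs. Prdm1 reached 50 CPM only in Foxp3-positive cells, so it was measured through the class where it was higher. Eomes had no UMI in the 92 Foxp3-positive cells, and 9.67 and 19.7 CPM in Foxp3-negative cells. Tbx21 had 19.6 and 28.1 CPM in Foxp3-positive cells and 44.7 and 36.7 CPM in Foxp3-negative cells, a pooled 0.514-fold (0.262 to 0.913). Tox went opposite ways in the hashed samples, with log2 ratios of -0.60 and 0.67. Of 2 measured genes of the type 2 list 1 was counted as higher and 1 as lower. The higher was Areg, the growth factor amphiregulin that tissue regulatory T cells can also make. Areg had 61.2 and 84.3 CPM in Foxp3-positive cells and 2.70 and 7.98 CPM in Foxp3-negative cells, so it too was measured through Foxp3-positive cells alone. All genes split into 111 higher and 65 lower, and 76 and 107 with TMM scaling over all genes.

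A pair of further divisions, also added after the values were seen, gave little for the members. The 395 T cells with Mki67 or Top2a UMIs, genes of dividing cells, had none of 4 measured members counted against the other T cells, where 14.9% of 2907 genes were counted (10.8% higher, 4.09% lower). This split also selected deeper cells, with a median of 6090 UMIs against 3328 in the other T cells. Ikzf2 gave log2 ratios of -0.23 and 0.77 and Tox 0.11 and 0.73. All genes split there into 314 higher and 119 lower, and 252 and 160 with TMM scaling over genes of at least 50 CPM. Of T cells without a coreceptor UMI, 40 (18 and 22) had UMIs of the gamma delta receptor genes Trdc, Tcrg-C1, Tcrg-C2 or Tcrg-C4. Ikzf2 was lower in these than in all others, with 83.0 and 93.1 CPM against 179 and 186 CPM in the others, the 1 member counted of 4 measured, where 12.3% of 2881 genes were counted (5.66% higher, 6.59% lower), and its pooled ratio was 0.490-fold (0.251 to 0.868). Of the Ikzf2 UMIs of the others, 115 of 240 and 46 of 106 came from Foxp3-positive cells. Against the Foxp3-negative others, at 105 and 118 CPM, the pooled ratio was 0.815-fold (0.414 to 1.46) and Ikzf2 was not counted, nor was it without the myeloid filter or without the quality filter, where Rora was counted as higher instead. The gamma delta gene-positive cells held no Foxp3 UMI, and Il17a, the type 17 cytokine gene, had 116 and 79.8 CPM in them and 0 and 0 CPM in the others. These cells held 60234 and 75216 UMIs of all genes, so that the Il17a values rest on few UMIs. Of 4 measured type 17 genes 2 were counted as higher, and of 10 measured type 1 genes 4 as higher and 1 as lower. From the regulatory list 8 were measured, with 1 higher and 3 lower. Il17a reached 50 CPM only in the gamma delta gene-positive cells, so it was measured through the class where it was higher. The type 17 count can thus lean towards genes high there. The 9 NK markers summed to 99.6 and 612 CPM in the gamma delta gene-positive cells, against 30.5 and 77.1 CPM in the others. All genes split into 163 higher and 190 lower, and 71 and 390 with TMM scaling over all genes.

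Detection of several members in 1 cell was read after each cell was thinned to 2000 UMIs, which left out cells with fewer. At this depth 37.8% of 402 CD4 T cells held no UMI of any member, 33.6% held UMIs of 1, 21.9% of 2 and 6.22% of 3. Of 433 CD8 T cells 57.0% held none and 9.70% held 2, and of 426 T cells without a coreceptor UMI 39.7% held none. Among 3356 macrophages 91.0% held none and 0.358% held 2.

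Among pairs of members for which the product of the shares gave at least 1 cell, Foxp3 and Ikzf2 had the highest ratio of cells with both to that product in CD4 T cells and in T cells without a coreceptor UMI. In CD4 T cells 25 cells had Foxp3 and 52 had Ikzf2, and 14 had both (11 and 3 in the hashed samples), against 3.23 from the product of the shares. An Ikzf2 UMI was found in 56.0% of Foxp3-positive CD4 T cells (95% interval 34.9 to 75.6) and in 10.1% of Foxp3-negative CD4 T cells (7.23 to 13.6). In T cells without a coreceptor UMI 12 cells had both (10 and 2), against 2.70 from the product, and Ikzf2 was found in 12 of 16 Foxp3-positive cells (95% interval of the share 47.6 to 92.7%) and in 14.6% of Foxp3-negative cells (11.4 to 18.4).

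Factors of different programmes were also found in the same cells. Tbx21 and Gata3 were together in 5 CD4 T cells, against 7.18 from the product, and a Gata3 UMI was found in 13.5% of Tbx21-positive cells (4.54 to 28.8) and in 20% of Tbx21-negative cells (16.0 to 24.5). Gata3 and Rora were together in 27 CD4 T cells against 19.99 from the product, but in 12 against 12.7 in hashed sample 1 and 15 against 7.37 in hashed sample 2, so that the excess was in 1 hashed sample. The same held over all T cells, where 28 cells in hashed sample 1 had both against 28.2 from the product, and 26 cells in hashed sample 2 against 12.3. Tbx21 and Rora were together in 14 CD4 T cells against 9.48, and Rora was found in 37.8% of Tbx21-positive cells (22.5 to 55.2) and 24.4% of Tbx21-negative cells (20.1 to 29.1), intervals that overlap. In T cells without a coreceptor UMI that pair was found in 13 cells against 7.90, all 13 in hashed sample 1. Gata3 and Prdm1 were together in 2 CD4 T cells against 6.60, and in 29 against 27.2 without thinning, so no avoidance is read from the pair.

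In CD8 T cells every pair was found in few cells. Tbx21 and Tox were together in 7 cells against 3.42 from the product, Tox and Prdm1 in 5 against 1.98 and Gata3 and Tox in 1 against 3.69. A Tox UMI was found in 18.4% of Tbx21-positive CD8 T cells (7.74 to 34.3) and in 8.10% of Tbx21-negative cells (5.61 to 11.2), again with overlapping intervals. Without thinning Tox and Prdm1 were together in 16 CD8 T cells against 7.66 from the product. In NK cells 3 of 34 had both Eomes and Tbx21, against 2.47 from the product.

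**Figure D4:**
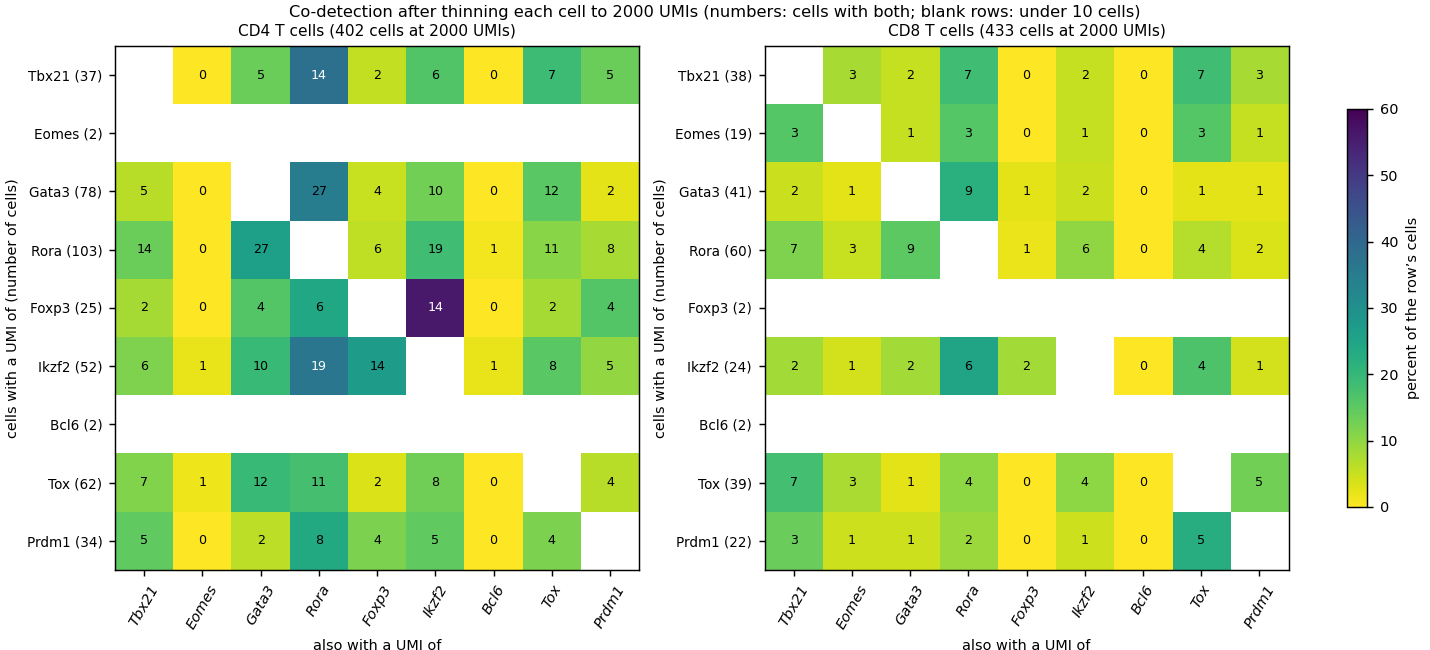
Co-detection of the members in CD4 T cells (left, 402 cells) and CD8 T cells (right, 433 cells) after thinning each cell to 2000 UMIs. Rows are cells with a UMI of the named member, with their number in brackets, columns are the second member, colour is the percent of the row's cells that also have it (0 to 60), numbers are cells with both, and rows of under 10 cells are blank; the darkest field is Ikzf2 among Foxp3-positive CD4 T cells, 14 of 25 cells.

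Genes with levels most like those of each member were sought over 10 points, the CD4, CD8, no-coreceptor T, NK and macrophage classes in both hashed samples, among 3614 genes. These points share 1 capture and contrast lymphocytes with macrophages, so that Pearson's r of log2 levels is high for many genes and only describes these classes. Izumo1r came first for Foxp3 (r = 0.974), with 73.4 CPM in CD4 T cells, 85.3 CPM in T cells without a coreceptor UMI, 11.9 CPM in CD8 T cells and 0 CPM in NK cells. Nsmaf, the interleukin 18 receptor gene Il18r1 and Med30 came first for Tbx21 (0.981, 0.974 and 0.965), and Zfp512 and Pim2 for Eomes (0.981 and 0.975). Pglyrp1, Def6 and Mettl26 came first for Gata3 (0.981, 0.980 and 0.976) and Sri, Itpr1 and Usp1 for Rora (0.976, 0.974 and 0.971). Lbh, Ptpn7 and Prkar1a were nearest to Ikzf2 (0.952, 0.95 and 0.941), Ezr, Cxcr3 and Arl2bp to Tox (0.977, 0.975 and 0.970) and Hnrnpl, Virma and Mknk2 to Prdm1 (0.964, 0.962 and 0.951). For Bcl6 they were Sulf2, Sesn1 and Hhex (0.978, 0.977 and 0.976), of which Hhex had 57.2 CPM in macrophages and 2.68 CPM in CD4 T cells.

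Of the measured members of the 3 T cell classes, 1 differed by 1.5-fold between hashed samples, with the pseudocount, in CD4 T cells and none in the other classes. In CD4 T cells this was Ikzf2, with 134 CPM in hashed sample 2 and 81.6 CPM in hashed sample 1, 1.64-fold (1.25 to 2.14). Under 50 CPM, Prdm1 in CD8 T cells had 14.2 CPM in hashed sample 2 and 35.7 CPM in hashed sample 1, 0.399-fold (0.180 to 0.800). Foxp3 in CD8 T cells had 0 CPM in hashed sample 2 and 9.11 CPM in hashed sample 1. Eomes, also under 50 CPM, was higher in hashed sample 2. It was 6.14-fold (1.31 to 37.9) in CD4 T cells and 3.11-fold (1.07 to 9.61) in T cells without a coreceptor UMI. A further 3 ratios passed 1.5-fold only before the pseudocount was added. Rora in T cells without a coreceptor UMI had 110 CPM in hashed sample 2 and 168 CPM in hashed sample 1, 0.654-fold (0.494 to 0.856). In CD8 T cells Tox had 72.6 CPM in hashed sample 2 and 45.5 CPM in hashed sample 1, 1.59-fold (1.08 to 2.35), and Ikzf2 37.0 CPM in hashed sample 2 and 58.5 CPM in hashed sample 1, 0.633-fold (0.389 to 0.999). The hashed samples cannot be told apart from animals, cages or handling, since the labels do not say what they separate.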

How the data were processed

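UMI counts per gene and cell, without normalization, were deposited by the authors as 2 hashed-sample matrices of 1 single-cell sample; per the file headers they came from Cell Ranger 6.1.1, while Cell Ranger 6.0, Seurat 4.3.0 and the build mm10 are given in the submitters' processing notes. Cells needed 200 genes, 500 UMIs and at most 10% mitochondrial UMIs, which 6601 barcodes passed. Scrublet, run on the pool, removed 44 cells and hashtag counts 5 more, 0.742% together, so doublets may remain. T cells with over 1% myeloid UMIs were set aside, a step added to the CD3 rule. UMIs were summed per class and hashed sample and scaled to CPM, with exact Poisson, Clopper-Pearson and conditional ratio intervals at 95%. Python 3.11.15, numpy 2.4.6, scipy 1.17.1, pandas 2.3.3, scanpy 1.11.5 and matplotlib 3.10.9 were used, and R 4.3.3 with edgeR 4.0.16 for trimmed mean of M values (TMM) factors only. Scripts were tested on simulated data.

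The members and gene lists were chosen with earlier results of these data known. The dendritic, monocyte and B marker classes, the C1q rule for macrophages, the splits of all T cells by Foxp3, Mki67 or Top2a and gamma delta genes, the Ikzf2 levels by Foxp3 and the promoter motifs were added after values had been seen. From each list at most 4 counted genes per comparison are named, by mean absolute log2 ratio, and for each member the 3 genes of highest Pearson r, of which 1 is not reported here. Gene positions are from GENCODE on GRCm38. The alternatives were no myeloid filter, 2 CD3 UMIs, 2 coreceptor UMIs, no doublet removal, no quality filter, a pseudocount of 1 CPM, TMM factors, a minimum of 20 CPM and 3 NK markers. TMM over genes of at least 50 CPM was added after the output of TMM over all genes was seen.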

Additional observations from a re-analysis of the deposited data

How the results depend on the processing

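No member counted in the main setting reversed its direction under any alternative. Members that were measured but not counted were not checked for a change of direction. With a minimum of 20 CPM, 4 members were counted in CD4 over CD8 T cells, Eomes lower and Foxp3 higher besides Gata3 and Rora, and 2 in the gamma delta comparison, where Foxp3 was added as lower. With at least 3 NK markers, 5 members were counted in CD4 T cells over NK cells (Tbx21 lower and Tox higher were added) and 2 in CD8 T cells over NK cells (Gata3 lower was added). CD8 T cells over NK cells also gave 2 with at least 2 coreceptor UMIs and with a pseudocount of 1 CPM. In Foxp3-positive over Foxp3-negative T cells 1 member, Ikzf2, was counted without the myeloid filter and with at least 2 CD3 UMIs, since Prdm1 was then not measured. The other 72 counts of members stayed within 1.5 times. Shares of cells with a UMI depended on depth. With 1000 UMIs per cell or no thinning, 45 shares left their interval at 2000 UMIs and 27 did not. Of the percents, nearly all of co-detection at these depths, 44 left their interval and 90 did not. Of the log2 ratios of measured members, 32 moved outside the pooled counting interval and 293 did not move. Over 9 settings the mean log2 ratio lay between 0.81 and 1.13 for Gata3 and between 0.91 and 1.09 for Rora in CD4 over CD8 T cells, and between 2.71 and 3.27 for Ikzf2 in Foxp3-positive over Foxp3-negative CD4 T cells. Rora in CD4 T cells over NK cells (1.18 to 2.68) was not counted under 3 settings, and Ikzf2 in the gamma delta comparison (-1.20 to -0.31) under 3 of 10, no myeloid filter, no quality filter and, added after seeing the data, Foxp3-negative cells as the others. The cause was not tested. TMM scaling over all genes moved the median of all genes to 0.47 and 0.39 in CD4 T cells over NK cells, 0.38 and 0.39 in CD8 T cells over NK cells, -0.16 and -0.13 in Foxp3-positive over Foxp3-negative CD4 T cells and -0.29 and -0.30 in the gamma delta comparison. Every ratio was taken within a hashed sample. No paired analysis was possible because the labels give 1 single-cell sample, with no replicate over which a test could be fitted. With 41 NK cells and 92 Foxp3-positive cells, depth limits every value of these classes.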
